A study of Oryza sativa with 36 samples.

Results

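In florets of the rice cultivar IR64, 50 of the 37862 genes in the count table rose to a short peak at developing stage 3 or 4 and were low before and after it. They were chosen from the IR64 libraries alone. Each had its highest IR64 stage mean at stage 3 or stage 4, a peak of at least 5 CPM (the count of a gene per 1000000 counts of its library), and a peak at least 4 times each of the IR64 means at stage 1, at stage 5 and in mature florets. The genes Os04g0599300 and Os07g0549600 were left out by the rule. Of the 37862 genes, 5485 had their highest IR64 mean at stage 3 or 4, and 3085 of these reached 5 CPM. The fold over stage 5 was the narrowest criterion, met by 87 of the 3085, against 323 for stage 1 and 915 for mature florets. The IR64 peak lay at stage 3 for 30 of the 50 genes and at stage 4 for 20. Because IR64 values chose these genes, their IR64 courses and their differences between the lines are given as descriptions, and the tests that bear on the peak were run on the libraries of the other line.

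That line, OsEPF1-oe, carries a transgene for overexpression of OsEPF1 in the IR64 background, and wild-type IR64 was the control. OsEPF1 is a secreted peptide that restrains the formation of stomata. RNA of whole florets was sequenced as poly(A) libraries at developing stages 1 to 5, which were sampled 75 to 85 days after sowing, and in mature florets taken at about 95 days, between heading of the panicle and opening of the florets. Each of the 12 groups (2 lines by 6 stages) held 3 libraries, named here replicates 1 to 3, and each developing replicate mixed RNA from 3 plants. Both lines were kept at 30 °C in a light period of 12 h and at 24 °C in the dark, watered and fertilized. Pooling of the mature replicates, the promoter of the transgene and the number of transformation events behind the line could not be taken from the labels. The p-values below measure the spread between replicates, which the labels list as separate samples.

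A rice floret holds its anthers, its pistil, lodicules, lemma and palea in a single sample. Within the anther, germ cells enter meiosis, pair their chromosomes along the synaptonemal complex and recombine, while the surrounding tapetum feeds the microspores, supplies pollen wall material and then dies. Many anther genes are switched on for one short interval of this sequence and then shut off, so the order in which they appear is commonly read as a clock of anther development. In these bulk samples, fewer cells of a type and less RNA per cell cannot be told apart. The count table gives gene IDs only, and the symbol of 1 of the 50 genes could be checked against the RefSeq annotation by its place along the chromosome. It is ZEP1 (Os04g0452500), which encodes the central element of the rice synaptonemal complex. The other 49 genes are given by ID, with no role.

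The libraries held 22372257 to 55476576 counts. OsEPF1 (Os04g0637300), the overexpressed gene, stood at 0 to 2.73 CPM in the 18 IR64 libraries and at 1111 to 3539 CPM in the 18 OsEPF1-oe libraries. The 16 floral organ identity genes of the MADS family and DROOPING LEAF whose names were checked had group means of 5.97 to 878 CPM, so each was present in all 12 groups. Replicates correlated at 0.955 to 0.995 across genes, which are not independent. Replicate 3 of IR64 mature florets and replicate 1 of IR64 stage 3 lay farthest from the mean of the other replicates of their groups. Their median absolute log2 deviation from it was 0.312 and 0.283. Replicate 1 of IR64 mature florets followed at 0.223 and replicate 1 of OsEPF1-oe stage 5 at 0.213.

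In IR64, the peak means of the 50 genes ran from 5.01 to 391 CPM, with a median of 14.1 CPM. The genes that peaked at stage 3 rose earlier and stopped sooner, which the split by IR64 peak stage largely fixes. Summed over these 30 genes, the IR64 libraries gave 84.6, 79.001 and 85.6 CPM at stage 1, 377, 255 and 163 at stage 2, 1943, 1211 and 1414 at stage 3, 503, 434 and 515 at stage 4, 183, 167 and 168 at stage 5 and 59.3, 61.01 and 50.04 in mature florets. Summed over the 20 genes with the stage 4 peak, they gave 12.7, 12.6 and 11.2 CPM at stage 1, 16.1, 15.9 and 13.3 at stage 2, 134, 144 and 91.1 at stage 3, 338, 342 and 363 at stage 4, 49.1, 57.04 and 70.2 at stage 5 and 8.56, 6.17 and 4.16 in mature florets. In both classes the libraries of the peak stage lay above those of every other stage, and a sum is weighted toward genes with many counts. Taken gene by gene, the median level of the stage 3 class was 11.5% of its own peak at stage 2 and 8.96% at stage 4. The stage 4 class stood at a median of 27.8% of its peak at stage 3 and 15.4% at stage 5. At the edge of the fold criterion, Os12g0162800 and Os05g0576300 were inside at a peak 4.03 times their highest flanking mean. Os02g0207100 and Os04g0229100 were outside, at 3.94 and 3.93 times. At the edge of the level criterion, Os01g0171200 (5.01 CPM) and Os01g0176900 (5.03 CPM) were inside, and Os07g0183050 (4.81 CPM) and Os05g0119400 (4.77 CPM) outside.

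**Figure D1:**
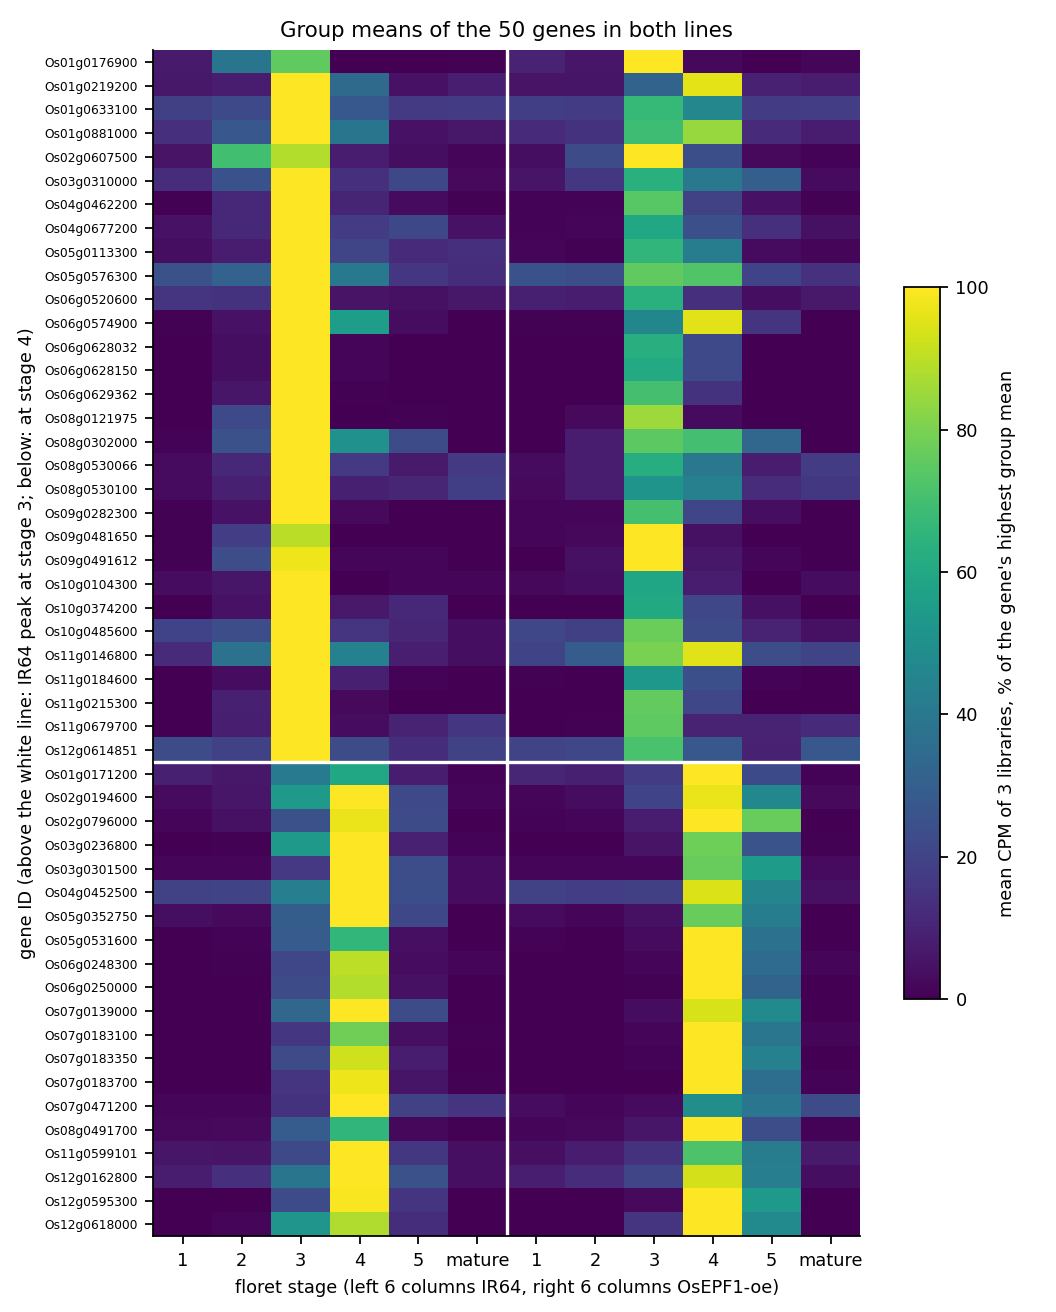
Group means (3 libraries each) of the 50 genes in IR64 and OsEPF1-oe at the 6 floret stages, each gene scaled to its highest group mean (100%). The 30 genes above the white line were chosen with an IR64 peak at stage 3 and the 20 below with one at stage 4. In OsEPF1-oe the bright cells of the upper block extend into stage 4, and those of the lower block leave stage 3 dark and extend into stage 5.

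In OsEPF1-oe, whose libraries the rule did not use, all 50 genes again had their highest stage mean at stage 3 (26 genes) or stage 4 (24 genes). Among the 24527 genes that reached 1 CPM in any group, 14.2% had their highest OsEPF1-oe mean at these stages. The 20 genes with an IR64 peak at stage 4 peaked at stage 4 in OsEPF1-oe as well, and 26 of the 30 stage 3 genes peaked at stage 3. The other 4, Os01g0219200, Os01g0881000, Os06g0574900 and Os11g0146800, had a higher OsEPF1-oe mean at stage 4 than at stage 3. The whole level and fold rule, applied to OsEPF1-oe, was met by 28 genes of the table, 0.114% of those 24527, and 21 of them were among the 50. The 21 shared genes made up 75% of the OsEPF1-oe set and 42% of the IR64 set. They were 19 of the 30 stage 3 genes and 2 of the 20 stage 4 genes, Os01g0171200 and Os08g0491700. Each of the 18 stage 4 genes that failed had its highest flanking OsEPF1-oe mean at stage 5, which was too high for the fold criterion.

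The mean of stages 3 and 4 in OsEPF1-oe, on the log2 scale, was then tested against each of the flanking stages with edgeR's quasi-likelihood test, with p-values adjusted over all 25795 genes tested. Over stage 1, 49 of the 50 genes were higher, where 28.5% of all genes tested were. The exception was Os01g0176900, at a log2 difference of 0.72 ± 0.72 (SE; adjusted p = 0.43). Over mature florets 47 of the 50 were higher, against 37.4% of all genes, and 1, Os07g0471200, was lower, against 39.9%. Over stage 5 the classes parted. There 29 of the 50 genes were higher, against 9.6% of all genes, and all 29 belonged to the 30 stage 3 genes. Of the 20 stage 4 genes 8 were lower, against 12.8% of all genes, and 0 were higher (0 also at an unadjusted p under 0.05 and 0 by DESeq2). This comparison averages stage 3 and stage 4, and the stage 4 genes were low at stage 3 in OsEPF1-oe, so it does not set their stage 4 peak against stage 5. In all 3 comparisons together, 27 of the 50 genes were higher, 27 of the 30 in the stage 3 class, and 196 of all genes tested were, or 0.76%. All 50 genes passed the filter on low counts, but 13 genes of the stage 3 class, Os01g0176900 among them, passed it only through stages 2 to 4, so counts over all 50 genes are a description. Of the other 17 in that class, 15 were higher in all 3 comparisons.

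Among the stage 3 genes, Os08g0302000 stayed high from stage 3 to stage 4 in OsEPF1-oe. In IR64 its libraries gave 5.26, 4.77 and 2.95 CPM at stage 1, 137, 91.2 and 61.2 at stage 2, 522, 307 and 345 at stage 3, 231, 182 and 180.1 at stage 4, 106, 81.5 and 86.9 at stage 5 and 0.389, 0.0447 and 0.0736 in mature florets. In OsEPF1-oe they gave 1.55, 0.949 and 1.12 CPM at stage 1, 43.8, 27.7 and 20.6 at stage 2, 369, 259 and 252 at stage 3, 262, 296 and 264 at stage 4, 114, 134 and 138 at stage 5 and 0.123, 0 and 0.0995 in mature florets. The stage 3 and stage 4 libraries of OsEPF1-oe overlapped each other and lay above those of all other stages of that line. Within OsEPF1-oe the mean of stages 3 and 4 was higher than stage 1 by 7.996 ± 0.31 log2 (SE; edgeR adjusted p = 3.4e-11) and higher than stage 5 by 1.06 ± 0.20 (0.0011). The fall from stage 4 to stage 5 was -1.03 ± 0.22 (adjusted p = 0.011). That call was lost without stage 4 replicate 2 (-0.96, adjusted p = 0.054) or stage 5 replicate 1 (-0.92, 0.058). In mature florets only 7 counts were left over the 3 libraries.

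Os06g0574900 moved its highest mean from stage 3 in IR64 to stage 4 in OsEPF1-oe. Its IR64 libraries gave 0.881, 1.61 and 0.813 CPM at stage 1, 26.7, 11.2 and 2.74 at stage 2, 390.2, 229.8 and 199.7 at stage 3, 151, 127 and 177 at stage 4, 8.82, 12.9 and 7.14 at stage 5 and 0.735, 0.715 and 1.29 in mature florets. Its OsEPF1-oe libraries gave 1.35, 1.86 and 0.8699 CPM at stage 1, 1.84, 0.764 and 0.846 at stage 2, 178, 98.4 and 100.4 at stage 3, 243, 288 and 251 at stage 4, 15.3, 47.6 and 60.8 at stage 5 and 0.956, 1.11 and 1.06 in mature florets. At stage 2 the OsEPF1-oe libraries were still at the level of stage 1, while the 3 IR64 libraries had already risen above theirs. Within OsEPF1-oe the gene rose by 6.79 ± 0.53 log2 from stage 2 to stage 3 (edgeR adjusted p = 1e-06), stood at 1.10 ± 0.38 from stage 3 to stage 4 (0.084, not called) and fell by 2.59 ± 0.40 to stage 5 (0.0015). Os01g0219200 was the one stage 3 gene that rose from stage 3 to stage 4 in OsEPF1-oe. Its IR64 libraries stood at 2.54, 1.64 and 2.67 CPM at stage 2, 28.4, 29.6 and 30.4 at stage 3, 7.95, 7.73 and 14.9 at stage 4 and 1.404, 1.69 and 1.26 at stage 5. Its OsEPF1-oe libraries stood at 1.58, 1.87 and 1.44 CPM at stage 2, 16.9, 4.42 and 6.89 at stage 3, 25.3, 35.1 and 24.4 at stage 4 and 2.35, 2.82 and 2.91 at stage 5. At both stages the libraries of the 2 lines did not overlap, with OsEPF1-oe the lower line at stage 3 and the higher at stage 4. The rise in OsEPF1-oe was 1.63 ± 0.35 log2 (adjusted p = 0.006) and the fall to stage 5 -3.33 ± 0.38 (9.1e-05).

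Os11g0146800 stood on a list of meiosis genes, but its listed symbol lies on another chromosome in the RefSeq annotation, so the values belong to the ID alone. Its IR64 libraries gave 5.44, 4.77 and 5.13 CPM at stage 1, 20.9, 15.4 and 12.3 at stage 2, 51.1, 38.2 and 39.7 at stage 3, 14.8, 17.6 and 24.2 at stage 4, 3.27, 4.14 and 3.53 at stage 5 and 2.16, 1.07 and 1.398 in mature florets. Its OsEPF1-oe libraries gave 7.87, 9.49 and 9.28 CPM at stage 1, 14.9, 11.2 and 11.4 at stage 2, 40.9, 31.6 and 30.3 at stage 3, 38.6, 45.5 and 38.9 at stage 4, 8.15, 10.96 and 11.4 at stage 5 and 9.93, 6.97 and 9.42 in mature florets. In OsEPF1-oe the libraries of stages 3 and 4 overlapped, and its libraries at stage 1, at stage 5 and in mature florets lay above those of IR64. The mean of stages 3 and 4 was higher than stage 1 by 2.22 ± 0.16 log2 (edgeR adjusted p = 9.5e-09), than stage 5 by 1.80 ± 0.16 (7.7e-07) and than mature florets by 1.82 ± 0.16 (1.6e-08).

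Os11g0679700, listed among pollen wall genes with a symbol that could not be checked, had a sharp onset. Its IR64 libraries gave 0.0259, 0 and 0.0428 CPM at stage 1, 8.297, 4.07 and 0.456 at stage 2, 64.1, 37.3 and 54.3 at stage 3, 1.37, 1.84 and 1.92 at stage 4, 5.29, 4.95 and 5.42 at stage 5 and 6.91, 7.96 and 9.68 in mature florets. Its OsEPF1-oe libraries gave 0, 0 and 0 CPM at stage 1, 0.724, 0.0764 and 0.169 at stage 2, 49.5, 31.3 and 36.1 at stage 3, 3.86, 5.04 and 6.31 at stage 4, 5.57, 4.75 and 5.34 at stage 5 and 8.91, 5.61 and 4.31 in mature florets. It was absent or nearly so at stage 1 in both lines, rose to its peak at stage 3 and was low at stage 4. In IR64 it was higher again in mature florets than at stage 4, with no overlap, and in OsEPF1-oe stages 4 and 5 and mature florets overlapped. With 0 counts at stage 1 of OsEPF1-oe, stages 3 and 4 pooled were at least 601-fold higher, against 3 counts over the group. The mean of stages 3 and 4 exceeded stage 5 by 1.36 ± 0.33 log2 (edgeR adjusted p = 0.008) and mature florets by 0.90 ± 0.32 (0.018). The mature call was lost without mature replicate 2 (0.85, adjusted p = 0.06) or replicate 3 (0.68, 0.09) and in the fit of all 36 libraries (0.066). The drop from stage 3 to stage 4 was -2.90 ± 0.37 (0.00019).

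Os10g0485600 and Os01g0633100 were present at every stage and rose at stage 3 from that level. Os10g0485600 gave 22.5, 24.5 and 30.9 CPM at stage 1, 30.1, 24.2 and 15.9 at stage 2, 116, 75.9 and 92.6 at stage 3, 23.9, 31.1 and 28.7 at stage 4, 13.4, 9.99 and 13.4 at stage 5 and 7.37, 4.57 and 4.88 in mature florets in OsEPF1-oe, against 103, 115 and 150.1 CPM at stage 3 and 14.6, 20.5 and 19.9 at stage 4 in IR64. Its stage 3 libraries lay above all others of the line, and it fell by 1.73 ± 0.22 log2 from stage 3 to stage 4 (edgeR adjusted p = 0.0001). Os01g0633100 gave 26.5, 25.9 and 26.97 CPM at stage 1, 26.4, 26.1 and 20.9 at stage 2, 123, 81.4 and 80.1 at stage 3, 61.6, 71.2 and 63.5 at stage 4, 24.03, 24.4 and 25.7 at stage 5 and 27.6, 25.5 and 24.3 in mature florets in OsEPF1-oe, against 152, 129 and 144 CPM at stage 3 and 37.9, 36.1 and 43.6 at stage 4 in IR64. Its OsEPF1-oe libraries lay below those of IR64 at stage 3 and above them at stage 4. Its fall from stage 3 to stage 4 was -0.50 ± 0.13 (adjusted p = 0.024), and it was lost without stage 3 replicate 1 (-0.28, adjusted p = 0.13), stage 4 replicate 1 (-0.43, 0.097) or stage 4 replicate 3 (-0.49, 0.076).

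Os05g0576300, just inside the fold criterion, gave 5.39, 4.85 and 4.02 CPM at stage 2, 18.3, 13.1 and 13.2 at stage 3, 15.4, 15.95 and 11.6 at stage 4 and 3.74, 3.697 and 4.34 at stage 5 in OsEPF1-oe, so that its stages 3 and 4 overlapped. Os03g0310000 was the 1 stage 3 gene not called over stage 5. It gave 2.62, 1.66 and 1.09 CPM at stage 1, 4.34, 6.19 and 4.52 at stage 2, 24.96, 16.4 and 17.04 at stage 3, 9.72, 13.9 and 13.4 at stage 4, 10.1, 9.37 and 8.28 at stage 5 and 1.42, 0.701 and 0.6304 in mature florets in OsEPF1-oe, against 37.96, 23.5 and 30.6 CPM at stage 3, 4.902, 3.47 and 4.47 at stage 4 and 8.31, 6.15 and 5.67 at stage 5 in IR64. Stages 4 and 5 of OsEPF1-oe overlapped, and both stood above mature florets. The mean of stages 3 and 4 exceeded stage 1 by 3.25 ± 0.29 log2 (edgeR adjusted p = 9.2e-08) and stood 0.67 ± 0.24 above stage 5 (0.058). It passed over stage 5 in DESeq2 (0.64, adjusted p = 0.039), with the replicate number as a block (0.68, 0.042), in the fit of all 36 libraries (0.66, 0.028) and without stage 4 replicate 1 (0.76, 0.037).

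**Figure D2:**
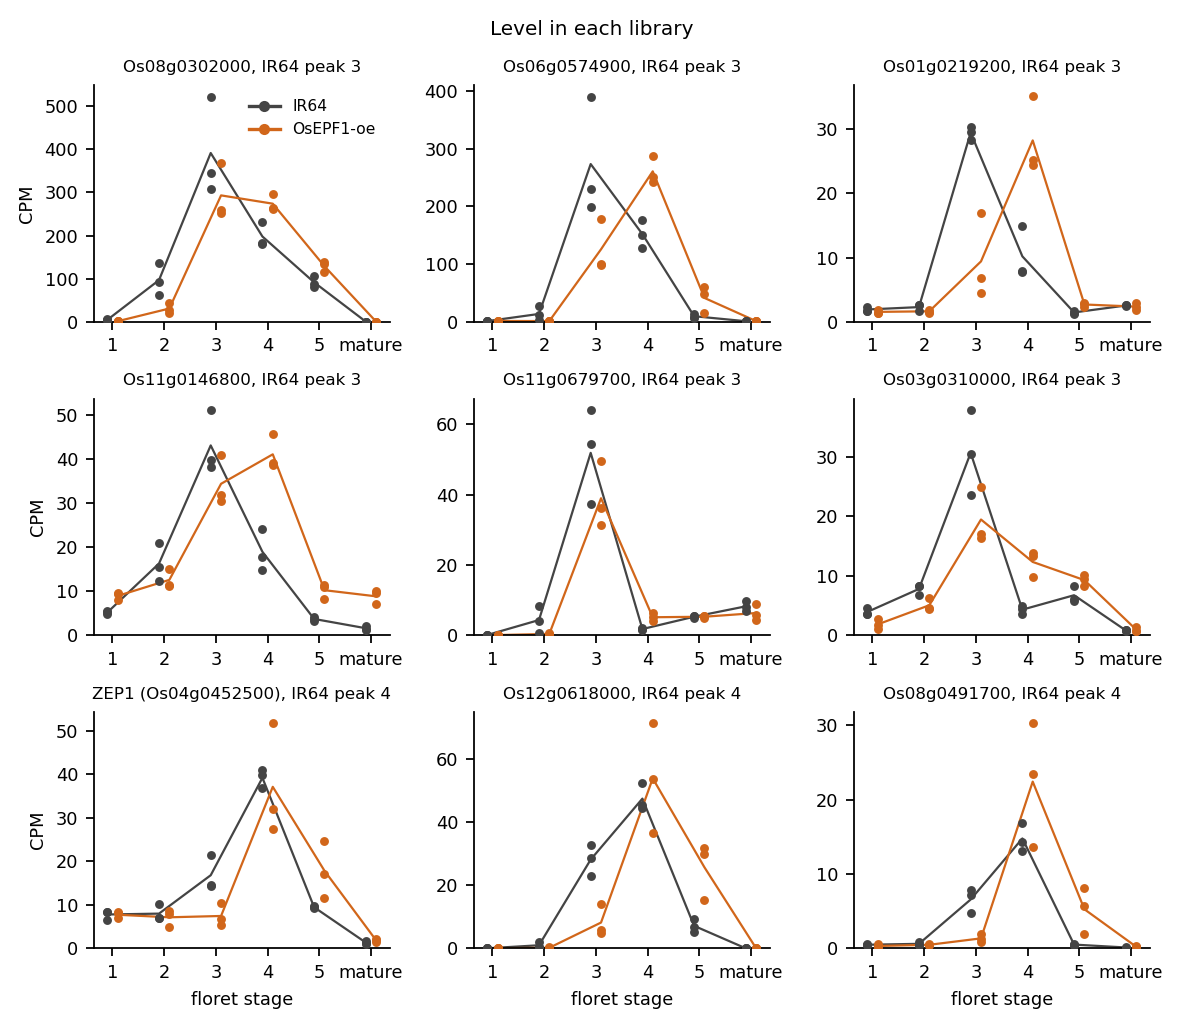
Level in CPM of 9 of the genes in each library (points) with the group mean (lines) at the 6 floret stages, IR64 in grey and OsEPF1-oe in orange. The top row and the middle row hold stage 3 genes and the bottom row stage 4 genes. In the bottom row the OsEPF1-oe points lie below those of IR64 at stage 3 and above them at stage 5.

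ZEP1, of the stage 4 class, is needed for the assembly of the synaptonemal complex in rice meiosis. Its IR64 libraries gave 8.34, 8.46 and 6.54 CPM at stage 1, 6.92, 10.1 and 6.87 at stage 2, 14.6, 21.5 and 14.3 at stage 3, 36.9, 39.7 and 40.9 at stage 4, 9.64, 9.45 and 9.24 at stage 5 and 1.599, 1.296 and 1.07 in mature florets. Its OsEPF1-oe libraries gave 6.87, 8.03 and 8.26 CPM at stage 1, 8.52, 7.98 and 4.905 at stage 2, 10.4, 5.27 and 6.68 at stage 3, 51.8, 32.1 and 27.5 at stage 4, 11.7, 17.1 and 24.7 at stage 5 and 2.13, 1.402 and 1.92 in mature florets. The gene was present from stage 1 on in both lines, and in OsEPF1-oe the libraries of stages 1, 2 and 3 overlapped. Within OsEPF1-oe the step from stage 2 to stage 3 was 0.12 ± 0.31 log2 (edgeR adjusted p = 0.84) and the rise from stage 3 to stage 4 was 2.34 ± 0.31 (0.00013). The step to stage 5, -0.98 ± 0.29 (adjusted p = 0.061), was not called. It passed in DESeq2 (-0.97, adjusted p = 0.023), in the fit of all 36 libraries (-0.98, 0.011) and without stage 5 replicate 3 (-1.31, 0.02). The mean of stages 3 and 4 exceeded stage 1 by 1.24 ± 0.27 (0.0011) and mature florets by 2.91 ± 0.31 (2.9e-07). Over stage 5 it stood at -0.19 ± 0.25 (edgeR adjusted p = 0.66), which was not called.

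Os12g0618000 was low before stage 3 and in mature florets. Its IR64 libraries gave 2.06, 0.572 and 0.288 CPM at stage 2, 32.5, 28.7 and 22.96 at stage 3, 45.3, 44.5 and 52.1 at stage 4, 5.29, 6.85 and 9.199 at stage 5 and 0, 0 and 0 in mature florets. Its OsEPF1-oe libraries gave 0.428, 0.0382 and 0.0846 CPM at stage 2, 13.9, 4.79 and 5.81 at stage 3, 71.2, 53.6 and 36.4 at stage 4, 15.2, 29.9 and 31.8 at stage 5 and 0, 0 and 0.0332 in mature florets. OsEPF1-oe lay below IR64 at stage 3 and above it at stage 5 with no overlap, and the lines overlapped at stage 4. It rose by 2.75 ± 0.43 log2 from stage 3 to stage 4 in OsEPF1-oe (edgeR adjusted p = 0.00066). In mature florets 1 count was left over the 3 libraries, against 1990 at stage 5. Os07g0139000 and Os12g0595300 were also lower in OsEPF1-oe at stage 3 and higher at stage 5, with no overlap at either stage. At stage 3, Os07g0139000 gave 15.98, 15.4 and 9.63 CPM in IR64 and 3.03, 0.325 and 0.919 CPM in OsEPF1-oe, and at stage 4 the OsEPF1-oe libraries reached 49.1, 39.6 and 27.6 CPM. Os12g0595300 gave 7.82, 7.11 and 3.68 CPM and 1.47, 0.122 and 0.376 CPM at stage 3, and 36.6, 23.4 and 19.8 CPM at stage 4 of OsEPF1-oe. In OsEPF1-oe both genes held 1 count over the 3 libraries of stage 2, and 110 and 51 counts over those of stage 3, a rise that was called (edgeR adjusted p = 0.0015 and 0.0086). Replicate 1 was the highest of the 3 at stage 3 in both genes. The rise from stage 3 to stage 4 in OsEPF1-oe was 4.78 ± 0.53 log2 (edgeR adjusted p = 8.6e-05) for Os07g0139000 and 5.34 ± 0.58 (7.1e-05) for Os12g0595300.

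Os08g0491700, Os01g0171200 and Os12g0162800 were the 3 stage 4 genes whose fall from stage 4 to stage 5 was called in OsEPF1-oe. Os08g0491700 gave 0.817, 0.5003 and 0.505 CPM at stage 2, 7.17, 7.84 and 4.69 at stage 3, 13.1, 14.3 and 16.9 at stage 4, 0.504, 0.597 and 0.42005 at stage 5 and 0.0432, 0.0894 and 0.221 in mature florets in IR64. In OsEPF1-oe it gave 0.428, 0.458 and 0.5496 CPM at stage 2, 1.97, 0.852 and 1.21 at stage 3, 30.3, 23.4 and 13.6 at stage 4, 1.87, 5.72 and 8.17 at stage 5 and 0.185, 0.148 and 0.332 in mature florets. Its OsEPF1-oe libraries did not overlap between stages 4 and 5, and at stage 5 they lay above all IR64 libraries. The fall was -2.01 ± 0.46 log2 (edgeR adjusted p = 0.015), lost without stage 4 replicate 1 (-1.77, 0.061) or replicate 2 (-1.95, 0.057). Os01g0171200 gave 0.526, 0.955 and 0.719 CPM at stage 2, 2.19, 0.609 and 1.71 at stage 3, 9.16, 8.91 and 7.16 at stage 4 and 0.955, 2.33 and 2.43 at stage 5 in OsEPF1-oe and fell by 2.07 ± 0.45 (0.011). Os12g0162800, the other gene just inside the fold criterion, gave 1.55, 1.18 and 1.27 CPM at stage 2, 2.57, 1.704 and 2.38 at stage 3, 12.7, 9.501 and 7.28 at stage 4 and 2.86, 4.49 and 6.12 at stage 5 and fell by 1.05 ± 0.26 (0.025). That call was lost without stage 4 replicate 1 (-0.86, 0.11) or replicate 2 (-1.06, 0.08) and without stage 5 replicate 1 (-0.79, 0.099) or replicate 2 (-1.08, 0.064). Os05g0531600 gave 3.79, 2.51 and 1.12 CPM at stage 3, 5.67, 5.89 and 5.54 at stage 4 and 0.1799, 0.457 and 0.462 at stage 5 in IR64 and 0.529, 0.0406 and 0.167 CPM at stage 3, 10.3, 7.702 and 7.79 at stage 4 and 0.636, 4.58 and 4.55 at stage 5 in OsEPF1-oe. Replicate 1 of OsEPF1-oe stage 5 was far below the other 2 in this gene.

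Os07g0471200 was the 1 stage 4 gene not called lower in mature florets than at stage 5 of OsEPF1-oe. Its IR64 libraries gave 0.233, 0.0769 and 0.342 CPM at stage 1, 0.301, 0.143 and 0.192 at stage 2, 1.02, 3.25 and 3.14 at stage 3, 14.9, 18.5 and 17.1 at stage 4, 2.63, 2.07 and 5.29 at stage 5 and 3.85, 2.55 and 1.14 in mature florets. Its OsEPF1-oe libraries gave 0.587, 0.316 and 0.689 CPM at stage 1, 0.263, 0.267 and 0.169 at stage 2, 0.8697, 0.203 and 0.459 at stage 3, 14.8, 6.37 and 3.85 at stage 4, 6.404, 5.68 and 7.83 at stage 5 and 3.95, 3.95 and 3.75 in mature florets. At stage 4 replicate 1 of OsEPF1-oe was more like IR64 than the other 2 libraries were, and stages 4 and 5 of OsEPF1-oe overlapped. In OsEPF1-oe the mean of stages 3 and 4 was lower than mature florets by 1.19 ± 0.35 log2 (edgeR adjusted p = 0.0055) and lower than stage 5 by 1.76 ± 0.34 (0.0013), although stage 4 rose over stage 3 by 4.02 ± 0.47 (4.4e-05).

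The steps between successive stages of OsEPF1-oe gave the order of onset and decline. Counts and medians over the 30 stage 3 genes include the 13 that passed the filter only through stages 2 to 4. Of the other 17, 4 rose from stage 1 to 2, 17 rose from stage 2 to 3, 7 fell from stage 3 to 4 and 13 fell from stage 4 to 5. Some of the 20 stage 4 genes passed the filter only through stages 4 and 5, such as Os06g0250000, with 3 counts at stage 3 and 549 at stage 4. The rises of that class, and its falls from stage 5 to mature florets, are thus a description as well. From stage 1 to stage 2, 6 genes rose, against 6.51% of all genes tested, and the 6 were all of the stage 3 class. From stage 2 to stage 3, 36 of the 50 rose, against 13% of all genes, and these were all 30 stage 3 genes (median log2 change 4.25) and 6 of the 20 stage 4 genes (10 by DESeq2; median 2.67 over the 20). From stage 3 to stage 4 the classes moved in opposite directions. All 20 stage 4 genes rose there (median 4.07), as did the stage 3 gene Os01g0219200, where 5.7% of all genes rose, while 16 of the 30 stage 3 genes fell (median -1.43 over the 30), where 4.98% of all genes fell. From stage 4 to stage 5, 28 of the 50 fell, against 2.62% of all genes, of which 25 were stage 3 genes (median -2.38 over the 30) and 3 stage 4 genes. The mean of each of the 20 stage 4 genes was lower at stage 5 than at stage 4, with log2 changes from -2.07 to -0.25 and a median of -1.02, and 9 of the 20 had an unadjusted p under 0.05. From stage 5 to mature florets 19 of the 20 stage 4 genes fell (median -4.92), Os07g0471200 being the other, and 10 of the 30 stage 3 genes, where 33.6% of all genes fell. In this last step 4 stage 3 genes rose, Os06g0520600, Os08g0530066, Os10g0104300 and Os12g0614851, where 36.6% of all genes rose. The shares by class were not tested against each other.

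**Figure D3:**
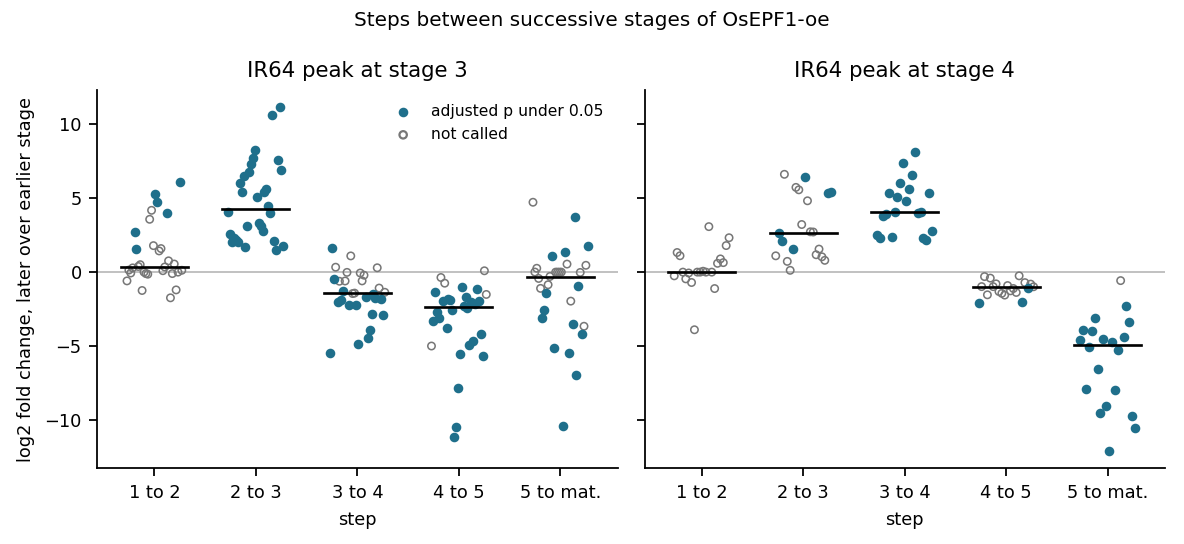
Log2 fold change (later over earlier stage) of each gene at the 5 steps between successive stages of OsEPF1-oe, for the 30 stage 3 genes (left) and the 20 stage 4 genes (right). Filled points passed an edgeR adjusted p under 0.05 and bars are medians, and the size of a change against a group at 0 counts depends on the fit. All 20 stage 4 genes are filled and above 0 at the step from 3 to 4, and 3 of them are filled at the step from 4 to 5.

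Set beside IR64, the stage 3 class of OsEPF1-oe was mostly lower at stages 2 and 3 and higher at stage 4. Summed over the 30 genes, the OsEPF1-oe libraries gave 76.7, 79.02 and 86.9 CPM at stage 1, 149, 116 and 90.5 at stage 2, 1309.6, 899 and 906 at stage 3, 752, 916 and 798 at stage 4, 210.3, 263 and 287 at stage 5 and 73.3, 58.7 and 59.9 in mature florets. The OsEPF1-oe libraries lay below all of IR64 at stage 2 and above all of them at stages 4 and 5, and the lines overlapped at stage 1, at stage 3 and in mature florets. Gene by gene, the mean of OsEPF1-oe was below that of IR64 at stage 2 for 29 of the 30 genes, with a median log2 difference of -1.999, and at stage 3 for 26 of the 30, with a median of -0.51. At stage 4 it was above that of IR64 for 30 of the 30, with a median of 1.52. At stage 1 it was above in 11 genes and below in 15, and at stage 5 above in 15 and below in 14, so the higher sums at stage 5 were not shared by the genes at large. Os08g0302000 alone averaged 91.4 CPM of that sum in IR64 and 129 CPM in OsEPF1-oe. All 3 OsEPF1-oe libraries lay below all 3 of IR64 at stage 2 in 16 of the 30 genes, against 9.08% of the 24527 genes, and above them at stage 4 in 28 of the 30, against 12.7%. IR64 values chose these genes for an IR64 peak at stage 3, so nothing is read from these shares. As a share of its own peak in the line, the median was 11.5% in IR64 and 5.23% in OsEPF1-oe at stage 2, and 8.96% and 35.7% at stage 4.

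The stage 4 class differed in the same order 1 stage later, which is a description, since the IR64 peak stage defined the classes. Summed over the 20 genes, the OsEPF1-oe libraries gave 11.7, 11.1 and 12.9 CPM at stage 1, 13.5, 12.8 and 10.1 at stage 2, 52.2, 17.9 and 23.9 at stage 3, 470.5, 327 and 247 at stage 4, 101, 181 and 221 at stage 5 and 9.099, 8.37 and 8.26 in mature florets. The lines did not overlap at stage 3, where OsEPF1-oe was lower, or at stage 5, where it was higher, and at stage 4 the IR64 libraries lay within the range of OsEPF1-oe. At stage 3 the mean of OsEPF1-oe was below that of IR64 in 20 of 20 genes, with a median log2 difference of -2.74, and at stage 5 above it in 20 of 20, with a median of 1.67. At stage 4 it was above in 11 and below in 9, with a median of 0.03. All 3 OsEPF1-oe libraries lay below all 3 of IR64 at stage 3 in 18 of the 20 genes, against 7.87% of the 24527 genes, and above them at stage 5 in 16 of the 20, against 8.06%. IR64 values chose these genes for a peak at stage 4 and a low level at stage 5, so nothing is read from these shares. The median share of the own peak at stage 3 was 27.8% in IR64 and 6.003% in OsEPF1-oe, and at stage 5 15.4% and 46.7%. Replicate 1 of OsEPF1-oe was the highest of its group at stages 3 and 4 and the lowest at stage 5, so the other 2 replicates lay farther from IR64 at stages 3 and 5.

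**Figure D4:**
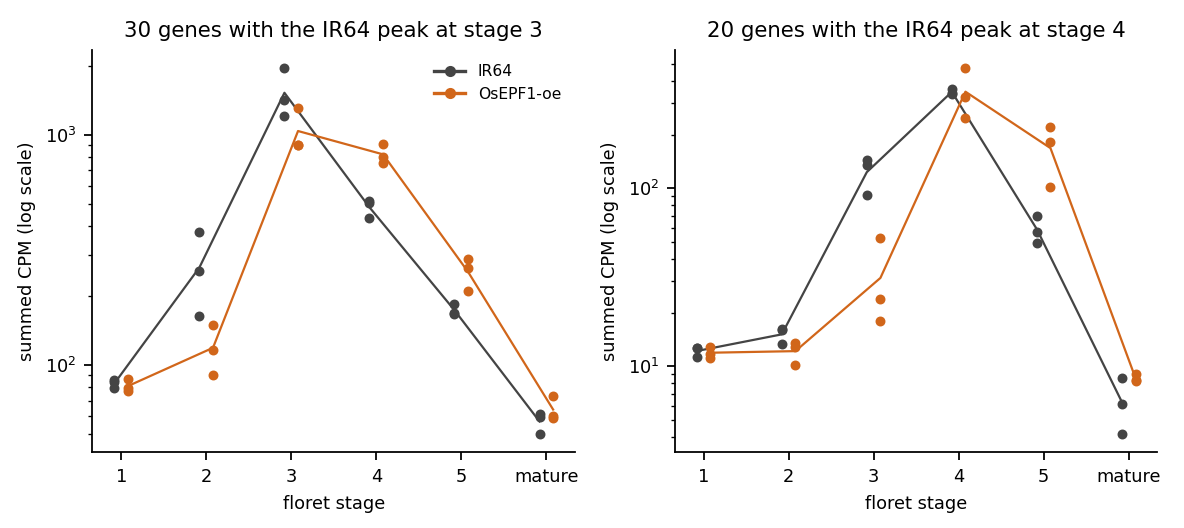
Summed CPM per library (points, log scale) with the group mean (lines) at the 6 floret stages for the 30 stage 3 genes (left) and the 20 stage 4 genes (right), IR64 in grey and OsEPF1-oe in orange. The orange points lie below the grey ones at stage 2 on the left and stage 3 on the right, and above them at stage 4 on the left and stage 5 on the right.

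The edgeR fit of all 36 libraries gave the number of the 50 genes whose line difference passed an adjusted p under 0.05. The IR64 values that chose the genes enter this difference, so the counts and the shares of all genes beside them are a description, and nothing is read from them. At stage 1, 3 genes were lower in OsEPF1-oe, against 0.352% of the 26726 genes tested, and 0 were higher, against 0.483% (1 at an unadjusted p under 0.05 and 1 by DESeq2). At stage 2, 12 were lower, all of the stage 3 class, against 0.718%. At stage 3, 17 were lower, against 1.03%, of which 15 were of the stage 4 class. At stage 4, 14 were higher, all of the stage 3 class, against 1.09%, and 0 were lower, against 1.29% (1 at an unadjusted p under 0.05 and 0 by DESeq2). At stage 5, 13 were higher, against 1.13%, of which 11 were of the stage 4 class, and 1 was lower, against 1.31%. In mature florets 1 was higher, against 0.771%, and 1 lower, against 1.25%. Single libraries moved several of these counts. The 3 at stage 1 became 0 without IR64 replicate 1 and 1 without OsEPF1-oe replicate 2. The 12 at stage 2 became 6 without IR64 replicate 1, 6 without OsEPF1-oe replicate 2 and 7 without OsEPF1-oe replicate 3. The 17 at stage 3 became 9 without OsEPF1-oe replicate 2 or replicate 3. The 14 at stage 4 became 4 and 5 without IR64 replicates 1 and 2, and 7 without OsEPF1-oe replicate 2 or 3. The 13 at stage 5 became 3 and 5 without IR64 replicates 1 and 2, and 6 and 4 without OsEPF1-oe replicates 2 and 3. The 1 lower gene at stage 5 was lost without any 1 of the 6 libraries.

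At the own IR64 peak stage, the median log2 difference was -0.51 in the stage 3 class and 0.03 in the stage 4 class. High IR64 values at that stage chose the genes, so these differences are a description. Among the genes with the lowest differences there, Os01g0219200 stood at -1.64 ± 0.31 log2 (SE), Os06g0574900 at stage 3 at -1.12 ± 0.47 and Os07g0471200 at stage 4 at -1.01 ± 0.42. Among the highest, Os08g0491700 stood at 0.61 ± 0.37, Os05g0531600 at 0.60 ± 0.62 and Os01g0171200 at 0.76 ± 0.43, all at stage 4. ZEP1 was at -1.16 ± 0.25 at stage 3 and 0.94 ± 0.25 at stage 5.

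**Figure D5:**
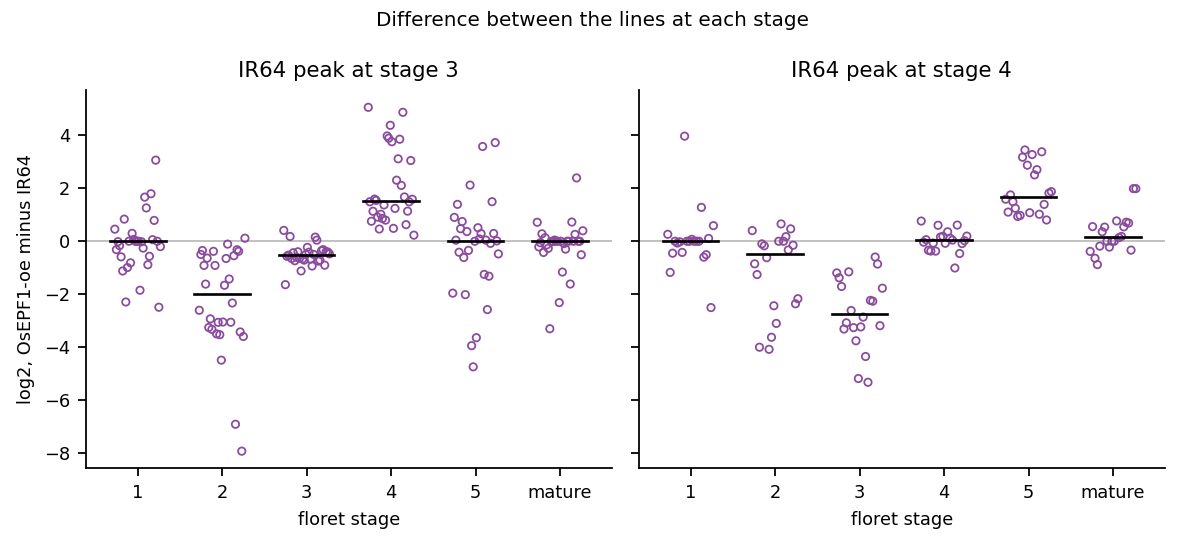
Log2 difference OsEPF1-oe minus IR64 of each gene at the 6 floret stages for the 30 stage 3 genes (left) and the 20 stage 4 genes (right), with bars at the medians. The left medians are -1.999 at stage 2 and 1.52 at stage 4, and the right medians are -2.74 at stage 3 and 1.67 at stage 5. Genes with few counts at stage 1 and in mature florets scatter widely.

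The 50 genes lay on all 12 chromosomes, with 7 on chromosome 6 (14%, against 8.33% of all genes). Chromosomes 1, 7, 8 and 11 held 5 each (10%, against 13.9%, 7.59%, 6.83% and 6.4% of all genes). Some had IDs close to each other. Within 20 IDs of the table, 6 pairs joined 10 genes, and both genes of each pair had the same IR64 peak. How often other sets of 50 genes hold such pairs was not counted, so nothing is read from them. The run Os06g0628032, Os06g0628150 and Os06g0629362 peaked at stage 3, with IR64 means of 47.5, 30.3 and 7.12 CPM there, and OsEPF1-oe means of 29.9, 18.5 and 5.02 CPM. At stage 4 they stood at 0.666, 0.444 and 0.0462 CPM in IR64 and 10.5, 6.65 and 1.03 CPM in OsEPF1-oe. At stage 4 the run was lower in IR64 than in OsEPF1-oe. This is a description, since IR64 values chose these genes for a peak at stage 3.

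The run Os07g0183100, Os07g0183350 and Os07g0183700 peaked at stage 4, with IR64 means of 5.09, 22.6 and 8.29 CPM there and OsEPF1-oe means of 6.49, 24.4 and 8.499 CPM. At stage 3 they stood at 1.03, 5.57 and 1.297 CPM in IR64, and at 0.126, 0.255 and 0.0261 CPM in OsEPF1-oe. At stage 5 OsEPF1-oe was the higher line, with 0.265, 1.904 and 0.482 CPM in IR64 and 2.55, 10.6 and 3.08 CPM in OsEPF1-oe. Os07g0183050, next to this run, fell just outside the level criterion. The pair Os06g0248300 and Os06g0250000 had the same form, and the pair Os08g0530066 and Os08g0530100 peaked at stage 3. Where such neighbours are near-identical copies, reads could be split between them and their separate values are uncertain, which was not tested.

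Lists of anther and floret genes with checked names were counted in the same OsEPF1-oe comparisons. Over all genes tested, 28.5% were higher and 26.7% lower at stages 3 and 4 than at stage 1, 9.6% and 12.8% than at stage 5, and 37.4% and 39.9% than in mature florets. Of the 9 meiosis genes, 3 were higher and 4 lower at stages 3 and 4 than at stage 1, 5 were higher than at stage 5, and 7 were higher and 2 lower than in mature florets. Only 1 of the 9 was higher in all 3 comparisons, DMC1A (Os12g0143800), a meiotic recombinase gene, at a log2 difference of 2.31 ± 0.18 over stage 1, 0.56 ± 0.16 over stage 5 (edgeR adjusted p = 0.018) and 2.20 ± 0.18 over mature florets. It was no member, since its IR64 means of 20.01 CPM at stage 3 and 8.27 CPM at stage 5 were too close for the fold criterion. PAIR2 (Os09g0506800), of the meiotic chromosome axis, was higher by 3.06 ± 0.26 over stage 1 and stood at -0.09 ± 0.21 over stage 5 (0.83). All 6 cell cycle genes were lower at stages 3 and 4 than at stage 1 and higher than at stage 5 and than in mature florets. Of the 3 pollen wall genes tested, 3 were higher than at stage 1 and 2 lower than at stage 5, and 1 was higher and 2 lower than in mature florets. Of the 3 tested genes of tapetum transcription factors, 2 were higher than at stage 1 and 1 lower than at stage 5, and 1 was higher and 1 lower than in mature florets. Of the 2 germ cell fate genes, both were lower than at stage 1 and higher than at stage 5 and than in mature florets. Of the 3 sugar supply genes tested, 3 were higher than at stage 1 and 3 lower than at stage 5, and 1 was higher and 2 lower than in mature florets. Of the 3 tapetum death genes tested, 2 were lower than at stage 1, 1 was higher and 1 lower than at stage 5, and 2 were higher than in mature florets. Of the 16 floral organ identity genes, 5 were higher and 6 lower than at stage 1, 4 were higher and 3 lower than at stage 5, and 4 were higher and 11 lower than in mature florets. The short peak in all 3 comparisons was met by 1 gene of these lists and by 0.76% of all genes tested.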

How the data were processed

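Gene counts of 36 floret libraries were deposited by the authors as 1 table of raw counts per gene ID. Trimmomatic 0.38, HISAT2 2.1.0, featureCounts, Subread 2.0.0 and the build IRGSP-1.0 are named in the submitters' processing notes. How multiply mapped reads and strand were handled is not stated there, so near-identical copies and overlapping or antisense genes may share reads. Libraries were grouped by the labels' line and stage.

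CPM used column totals. Tests used edgeR 4.0.16 (TMM scaling, filterByExpr, robust quasi-likelihood test, two-sided, Benjamini-Hochberg over all genes tested, threshold 0.05) in R 4.3.3. The peak and step comparisons were fitted on the 18 OsEPF1-oe libraries (12 residual degrees of freedom, 25795 genes) and the line differences on all 36 (24, 26726 genes). DESeq2 1.42.0, other scalings and filters, a replicate block, other sample sets and each library left out were the alternatives. Where the 3 libraries of a group held 0 counts, a fold was bounded against 3 counts over the group, which covers counting error only.

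The members and lists were chosen with earlier results of these data known. Of 93 listed ID and symbol pairs in 12 lists, 48 passed a check of chromosome and relative place (tolerance 0.02) in RefSeq (ASM3414082v1). Of the 12 lists, 4 (callose, late pollen, photosynthesis, stomatal) had no checked entry and are not reported. Genes were described by a rule. It took members of the lists, and for each IR64 peak stage the 4 with the highest mean CPM over OsEPF1-oe stages 3 and 4. It took the 3 lowest and 3 highest line differences at the own peak stage among those with at least 5 CPM in the higher line, up to 4 with an OsEPF1-oe peak elsewhere (there were 0), up to 4 with the highest IR64 peak not higher in all 3 comparisons, and the 2 nearest the 4-fold threshold on each side. Other genes were named where a count was small or their IDs were close, after their values were seen.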

Additional observations from a re-analysis of the deposited data

Results flagged for a closer look

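In 13 of the 18 members picked for description, the line difference (OsEPF1-oe minus IR64, log2) took opposite signs at 2 stages. All 3 OsEPF1-oe libraries lay below all 3 of IR64 at the earlier stage and above them at the later. These stages were picked by that criterion, IR64 values chose the genes, and the difference between stages was not tested. Of the 24527 genes, 9.08% lay below IR64 in this way at stage 2 and 7.87% at stage 3. Above IR64 were 12.7% at stage 4 and 8.06% at stage 5. The share of all genes that met both was not counted, so nothing is read from the 13. From stage 3 to stage 4 the line difference went from -1.64 to 1.49 for Os01g0219200, a change of 3.13, and from -3.27 to 0.60 for Os05g0531600, a change of 3.87. It went from -1.12 to 0.80 for Os06g0574900 (1.92), from -0.57 to 0.76 for Os01g0633100 (1.33) and from -1.20 to 0.76 for Os01g0171200 (1.96). Os05g0531600 and Os01g0171200 are stage 4 genes, and 0 of those 20 were higher at stage 4 at an edgeR unadjusted p under 0.05. Their positive values there were thus not told apart from 0. From stage 3 to stage 5 the line difference went from -1.16 to 0.94 for ZEP1 (2.09), from -1.78 to 1.88 for Os12g0618000 (3.65) and from -3.24 to 1.08 for Os07g0139000 (4.32). Over the same stages it went from -3.19 to 1.82 for Os12g0595300 (5.01), from -2.24 to 1.02 for Os07g0471200 (3.26) and from -2.27 to 3.38 for Os08g0491700 (5.65). From stage 2 to stage 4 it went from -1.66 to 0.49 for Os08g0302000 (2.15) and from -0.64 to 1.55 for Os03g0310000 (2.18).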

How the results depend on the processing

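In OsEPF1-oe, the counts over all 50 genes called higher in the peak comparisons, and higher or lower in the steps, stayed within 1.5 times under every alternative run. Counts by class were recomputed with DESeq2 alone, which called 10 in place of 6 stage 4 genes higher from stage 2 to 3. The counts over all 50 genes ranged from 42 to 49 over stage 1, 23 to 30 over stage 5, 41 to 48 over mature florets and 22 to 28 in all 3. The steps gave 30 to 40 rises from stage 2 to 3, 20 to 21 rises from stage 3 to 4 and 21 to 31 falls from stage 4 to 5. Whether replicate numbers pair the libraries was not settled. The deviations of same-number libraries correlated across genes at -0.252 to 0.544 in OsEPF1-oe (median 0.0736, against -0.00778 for different numbers). In IR64 they correlated at -0.625 to 0.698 (median 0.151, against -0.0785 for different numbers). With the replicate number as a block the counts were 49, 30, 47 and 28. The rule gave 92 genes at 3 times and 33 at 10 CPM, against 50, and 46 to 59 with 1 IR64 library left out. The line differences depended more on the fit. With only the 6 libraries compared, stage 1 gave 1 higher (also 1 by DESeq2) and 1 lower, stage 2 gave 2 lower, stage 3 gave 0 lower, stage 5 gave 2 higher and 0 lower (0 lower also with no filter), and mature florets gave 0 higher and 0 lower; fewer residual degrees of freedom remain there. Leaving out 1 library gave 0 to 2 lower at stage 1, 6 to 12 lower at stage 2, 9 to 19 lower at stage 3, 4 to 17 higher and 0 to 1 lower at stage 4, and 3 to 17 higher and 0 to 0 lower at stage 5. Of the values of named genes under alternatives, 3018 were rated the same and 114 moved, apart from those that crossed the threshold. Of the latter, 17 passed it, 20 were lost and 0 reversed. Groups at 0 counts limit folds to bounds.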
